A study of Mus musculus with 13 samples.

Results

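The oligodendrocyte lineage transcripts described here are a list of 32 genes that mark the steps from oligodendrocyte precursor to myelinating oligodendrocyte, read by gene symbol in RNA sequencing of glia sorted from mouse spinal cord. Of these genes, 31 were found among the 39171 genes of the expression table, and Lhfpl3 was not analysed here. Neither sort was aimed at oligodendrocytes. By role, 3 of the 31 genes were of precursors, 3 of newly formed oligodendrocytes and 5 were regulators of the lineage. The others were 6 receptors and enzymes, 10 genes of the myelin membrane and 4 of myelin lipid synthesis.

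The cells came from Il33 knockout mice (KO) and their wild-type littermates (WT), strain C57BL/6, in 3 KO and 3 WT microglia libraries and 4 KO and 3 WT astrocyte libraries. Il33 encodes interleukin-33, a cytokine that astrocytes release. Microglia, the resident macrophages of the cord, were sorted by the surface protein CD11b at postnatal day 12 (P12), a gate that other myeloid cells also pass. Astrocytes were sorted by green fluorescence from an Aldh1l1-GFP reporter at P12, except KO astrocytes 2 and WT astrocytes 3, which were P9, and the libraries of a group were biological replicates per the series' design text.

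Oligodendrocytes form the myelin sheaths of the central nervous system. Their precursors carry the growth factor receptor PDGFRα and the proteoglycan NG2, pass through a short newly formed stage, and then switch on the proteins and lipids of compact myelin under Olig2, Sox10 and Myrf. In the mouse spinal cord, myelination is under way in the first weeks after birth. Microglia take up myelin and young oligodendrocytes in the developing nervous system, and some lineage genes, Olig1 and Olig2 among them, are also used in the astrocyte lineage.

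Values were FPKM, fragments scaled to transcript length and sequencing depth, so levels can be set side by side between genes. Summed FPKM was 1.19e+06 to 1.43e+06 in the microglia libraries and 1.68e+06 to 3.84e+06 in the astrocyte libraries. The top gene, ENSMUSG00000089855, held 11.6% of the sum in WT microglia 3 and 23.7% to 32.5% in the other microglia libraries. In the astrocyte libraries it held 26.6% to 38.9%, so ratios between libraries and sorts rest on unequal totals. The smallest step between low values gave the worth of 1 fragment on a transcript of 1 kb as 0.0190 to 0.0557 FPKM. Against KO microglia 2, the inverse of this worth was 70.2% to 100% in the microglia libraries. In the astrocyte libraries it was 34.2% to 62.9%. This inverse carries any scaling between libraries as well as depth. A given low FPKM thus rested on fewer fragments in astrocytes and was less precise. The targeted gene Il33 had 2.28, 2.05, 0.424 and 0.733 FPKM in KO astrocytes, against 96.3, 113 and 108 FPKM in WT astrocytes. The 12 microglia markers summed to 12214 to 12454 FPKM in KO microglia, 11264 to 12845 in WT microglia, 9.09 to 83.3 in KO astrocytes and 21.8 to 71.0 in WT astrocytes. The 12 astrocyte markers summed to 70.5 to 119 FPKM in KO microglia, 72.5 to 104 in WT microglia, 7259 to 10604 in KO astrocytes and 7537 to 12183 in WT astrocytes. The sorted populations therefore carried the defining markers of their labels.

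The promoters of 22 of the 31 genes were matched in RefSeq (GRCm38.p6). Each window runs from 250 bases before to 50 bases after the promoter entry's start nearest to the start of the gene. That start can lie away from the start of the gene. For Aspa, on the minus strand, the window is 73324588 to 73324887 and the gene's coordinates end at 73329596. The windows of Cldn11 (chr3:31149670-31149969, plus strand) and Mag (chr7:30914814-30915113, minus strand) are shown because these are the listed genes in the authors' deposited table of genotype differences in microglia. That of Pdgfra (chr5:75152001-75152300, plus strand) is shown as the precursor counterpart, and that of Olig2 (chr16:91225300-91225599, plus strand) as a lineage regulator with a large difference between the sorts. Capitals mark the letters CTTTGT in Mag and CATTGT in Olig2, which are the reverse complements of ACAAAG and ACAATG, the letters at the core of many sites for Sox factors.
Cldn11: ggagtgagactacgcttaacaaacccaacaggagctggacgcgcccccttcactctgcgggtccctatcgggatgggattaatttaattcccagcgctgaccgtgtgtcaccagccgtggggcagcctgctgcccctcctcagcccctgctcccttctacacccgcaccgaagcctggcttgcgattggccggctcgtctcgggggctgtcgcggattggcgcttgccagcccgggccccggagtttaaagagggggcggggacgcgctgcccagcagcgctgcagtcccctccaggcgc
Mag: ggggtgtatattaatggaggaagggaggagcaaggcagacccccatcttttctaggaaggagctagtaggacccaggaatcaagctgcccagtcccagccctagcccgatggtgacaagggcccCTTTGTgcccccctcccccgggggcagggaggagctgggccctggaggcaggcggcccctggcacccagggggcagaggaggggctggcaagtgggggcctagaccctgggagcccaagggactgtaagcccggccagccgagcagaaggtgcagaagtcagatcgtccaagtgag
Pdgfra: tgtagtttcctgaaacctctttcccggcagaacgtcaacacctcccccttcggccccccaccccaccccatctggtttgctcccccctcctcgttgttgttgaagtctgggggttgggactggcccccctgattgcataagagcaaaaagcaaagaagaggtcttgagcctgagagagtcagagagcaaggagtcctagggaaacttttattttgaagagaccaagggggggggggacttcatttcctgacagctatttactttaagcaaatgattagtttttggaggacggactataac
Olig2: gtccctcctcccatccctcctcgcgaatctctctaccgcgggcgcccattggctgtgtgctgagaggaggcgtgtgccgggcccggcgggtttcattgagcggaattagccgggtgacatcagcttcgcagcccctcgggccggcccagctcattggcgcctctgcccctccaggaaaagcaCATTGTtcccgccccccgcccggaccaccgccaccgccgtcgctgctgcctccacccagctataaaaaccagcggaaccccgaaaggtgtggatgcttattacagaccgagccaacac
On both strands, ACAAAG was in 4 of the 22 windows (18.2%; Cnp, Mag, Mobp and Opalin), against 18.7% of all 32851 promoter windows of the same length. ACAATG was in 5 windows (22.7%; Enpp6, Ermn, Gal3st1, Olig2 and Sirt2), against 12.6% of all windows. Of the letters CAGCTG and CATATG, which read the same on both strands and fit factors of the Olig class, CAGCTG was in 3 windows (13.6%; Aspa, Opalin and Tmem98), against 16.3% of all, and CATATG in that of Tspan2 (4.55%), against 3.91% of all. Each motif was counted on its own, so Opalin counts for ACAAAG and for CAGCTG. These matches describe the letters of the windows and no binding.

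**Figure D1:**
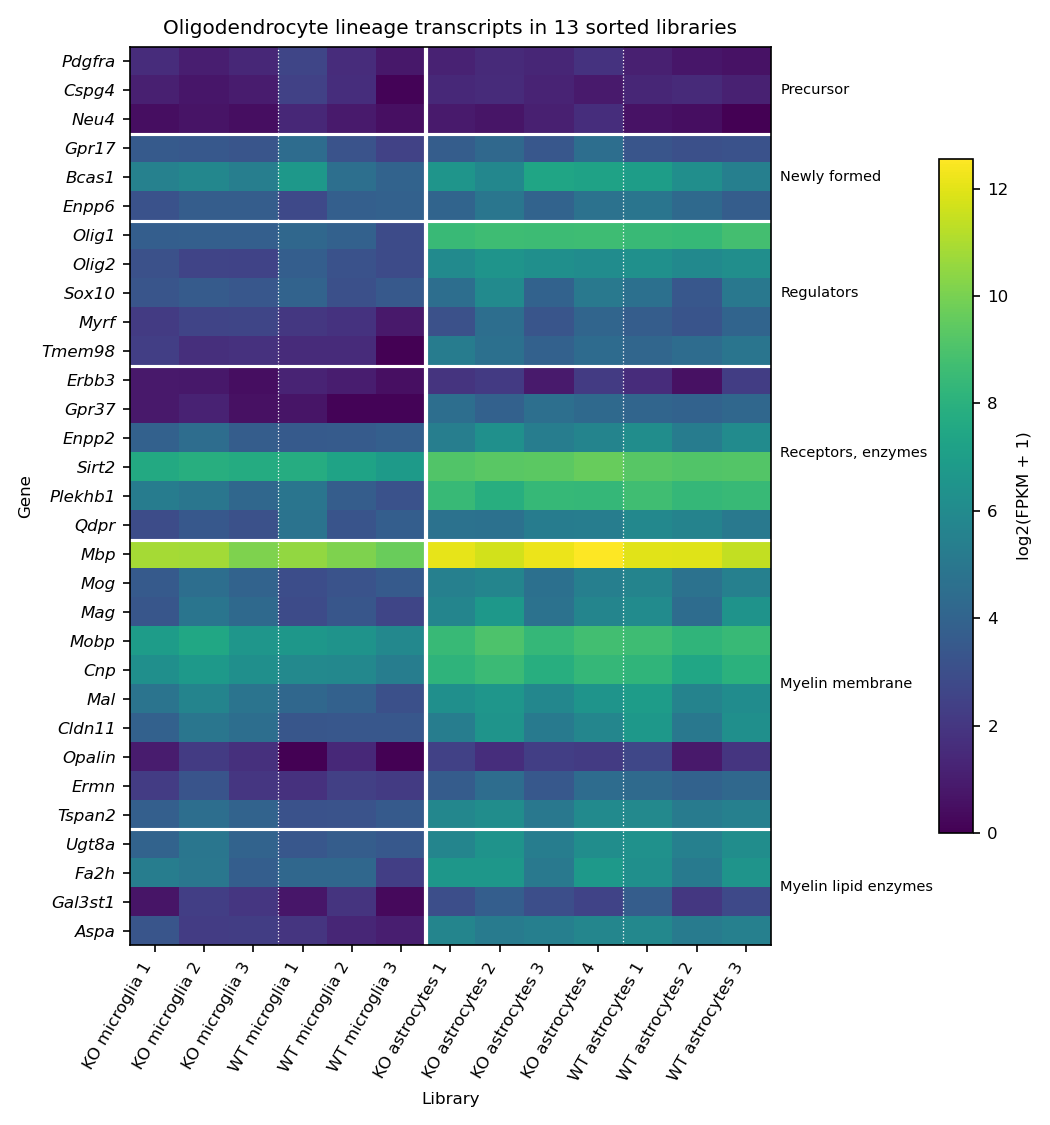
Level of 31 lineage genes (rows, grouped by role) in 13 libraries (columns), coloured by log2(FPKM + 1). Mbp is the brightest row in every library, the precursor genes are dark throughout, and most rows are brighter in the 7 astrocyte libraries than in the 6 microglia libraries.

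Transcripts of mature myelin were present in both sorts and made up most of the lineage signal, while the genes of precursors were near the low end. Mbp, which encodes the basic protein that compacts myelin, had 1833, 1782 and 1119 FPKM in KO microglia and 1461, 1126 and 829 FPKM in WT microglia. In astrocytes, Mbp had 4377, 3331, 4722 and 5997 FPKM in KO and 4058, 3944 and 2654 FPKM in WT. By mean FPKM it ranked 24 of 21224 protein-coding genes in KO microglia, 35 in WT microglia, 17 in KO astrocytes and 22 in WT astrocytes. Pdgfra, the receptor that drives division of precursors, had 2.00, 1.11 and 1.63 FPKM in KO microglia and 5.07, 1.99 and 0.763 FPKM in WT microglia. Its level in astrocytes was 1.27, 1.84, 1.59 and 2.54 FPKM in KO and 1.15, 0.692 and 0.528 FPKM in WT. Pdgfra was 0.0622% to 0.145% of the level of Mbp in KO microglia and 0.0921% to 0.347% in WT microglia, and in the astrocyte libraries it was lower still, at 0.0175% to 0.0553%.

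Setting microglia against astrocytes within each genotype, 22 of 30 tested lineage genes (73.3%) were lower in KO microglia than in KO astrocytes, and 22 of 30 (73.3%) lower in WT microglia than in WT astrocytes, at an adjusted p under 0.05 in limma over all genes. Of all 16258 genes tested, 25.1% were called lower in KO microglia and 24.5% lower in WT microglia. No lineage gene was called higher in microglia in either genotype, against 5181 of all 16258 genes in KO and 4737 in WT. The median lineage gene differed by −1.46 on the log2(FPKM + 1) scale in KO and by −1.95 in WT, against medians of 0.24 and 0.21 over all genes tested. The comparison in KO and that in WT share no library, though they share one estimate of the spread. In bulk samples like these, a smaller number of lineage cells or fragments and less lineage RNA per cell cannot be told apart. Markers of other cells were also read in both sorts. The 8 Schwann cell markers summed to 315 to 375 FPKM in KO microglia, 69.2 to 398 in KO astrocytes, 279 to 361 in WT microglia and 95.9 to 434 in WT astrocytes. Their ranges overlapped between the sorts in both genotypes. The 12 neuron markers summed to 14.7 to 21.6 FPKM in KO microglia, 64.7 to 419 in KO astrocytes, 13.7 to 65.9 in WT microglia and 41.0 to 114 in WT astrocytes, without overlap in KO and with overlap in WT. The part of these markers in the differences between the sorts was not tested.

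On the log2(FPKM + 1) scale the most negative difference was that of a regulator of the lineage, although by the ratio of mean FPKM Gpr37 lay further apart in WT (56.3 times higher in astrocytes) than Olig1 (30.4 times). Olig1, a transcription factor gene (ENSMUSG00000046160, GRCm38 chromosome 16, 91269772 to 91271933), had 12.6, 13.1 and 12.9 FPKM in KO microglia and 364, 407, 388 and 399 FPKM in KO astrocytes. In WT it had 17.5, 13.8 and 6.30 FPKM in microglia and 363, 335 and 443 FPKM in astrocytes. The 2 sorts did not come near each other, and the difference was −4.76 in KO (SE 0.27, limma adjusted p = 1.55e-07) and −4.84 in WT (SE 0.30, adjusted p = 3.12e-07). Olig2, which specifies the lineage, differed by −3.44 in KO (SE 0.24, limma adjusted p = 7.17e-07) and −2.81 in WT (SE 0.26, adjusted p = 7.30e-06). Tmem98, which encodes a membrane protein that binds Myrf, differed by −2.53 in KO and −3.35 in WT, and WT microglia 3 was listed at 0 for it. Myrf, which switches on myelin genes, was also lower in microglia, by −1.06 in KO (limma adjusted p = 0.0245) and −1.81 in WT (adjusted p = 0.00226). Sox10, a transcription factor gene of the lineage, was lower in KO microglia (−1.14, limma adjusted p = 0.0219), while in WT its difference of −0.44 did not pass (adjusted p = 0.381). The KO call was lost for Sox10 without KO microglia 1, KO microglia 3 or KO astrocytes 4 (limma adjusted p up to 0.0698) and for Myrf without KO microglia 1 or KO astrocytes 4 (up to 0.0855).

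Of the tested genes on the list from the precursor and newly formed stages, only Bcas1, in KO, was called between the sorts in the main fit. Neither tested precursor gene was called, and Neu4, a sialidase gene used as a precursor marker, was under the filter with at most 2.10 FPKM in any library. Neu4 had 0.375 to 0.593 FPKM in KO microglia and 0.658 to 2.10 in KO astrocytes, without overlap, and it overlapped in WT. Pdgfra differed by −0.15 in KO (SE 0.41, limma adjusted p = 0.781) and by 0.80 in WT (SE 0.44, adjusted p = 0.154). Without WT microglia 3, which had the lowest Pdgfra of that group, the WT difference became 1.23 and passed (limma adjusted p = 0.0259). Cspg4, which encodes NG2, differed by −0.33 in KO and 0.09 in WT (limma adjusted p = 0.583 and 0.908). Gpr17, a receptor of the newly formed stage that shares exon sequence with Lims2 on the other strand, differed by −0.48 in KO and 0.24 in WT (limma adjusted p = 0.370 and 0.693). Enpp6, a phosphodiesterase gene that marks cells about to myelinate, differed by −0.90 in KO and −0.81 in WT (limma adjusted p = 0.0777 and 0.141). Its FPKM ran from 7.96 to 12.2 in KO microglia and from 14.8 to 29.0 in KO astrocytes, without overlap, and overlapped in WT. Enpp6 was called lower in WT with P12 astrocytes only (−1.08, limma adjusted p = 0.0481) and without either P9 library, and in KO with quantile normalisation (−1.11, adjusted p = 0.0379). Bcas1, which marks the newly myelinating cell, had a difference of −1.48 in KO (limma adjusted p = 0.0397) and −1.50 in WT (adjusted p = 0.0551). Its KO call was lost without any 1 of 3 KO microglia libraries, KO astrocytes 2, 3 or 4, WT astrocytes 1 or 3, or the filter, and with P12 astrocytes only (limma adjusted p up to 0.101). In WT, Bcas1 was called without WT microglia 1 (−2.29, adjusted p = 0.000353), with protein-coding genes only (adjusted p = 0.0379) and with quantile normalisation (adjusted p = 0.0424).

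Among the receptors and enzymes, 5 of 6 were called lower in microglia in each genotype. Erbb3, a neuregulin receptor gene, was not called, with differences of −0.86 in KO and −0.27 in WT (limma adjusted p = 0.0949 and 0.631). In KO, Erbb3 was called lower with quantile normalisation and without KO astrocytes 3 or WT astrocytes 2 (limma adjusted p down to 0.00267). In WT, Erbb3 was called lower with quantile normalisation (limma adjusted p = 0.0285), and its difference was 0.01 without WT astrocytes 1. Gpr37, a receptor that restrains differentiation, had 0.817, 1.31 and 0.490 FPKM in KO microglia and 22.1, 14.04, 22.8 and 18.3 FPKM in KO astrocytes. In WT, Gpr37 had 0.658, 0.0931 and 0.0972 FPKM in microglia and 16.1, 14.3 and 17.3 FPKM in astrocytes. No microglia library came near any astrocyte library for this gene (limma log2 difference −3.49 in KO and −3.81 in WT). Plekhb1, which encodes a membrane-associated adaptor, differed by −3.56 in KO and −4.68 in WT. Sirt2, a deacetylase of the myelin sheath whose exons overlap Nfkbib on the other strand, was the most abundant of the 6, at 193 to 232 FPKM in KO microglia, 571 to 796 in KO astrocytes, 114 to 214 in WT microglia and 557 to 630 in WT astrocytes.

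The myelin genes were lower in microglia by a median of −1.43 in KO and −2.11 in WT. Of the 14 genes of the myelin membrane and myelin lipids, 11 were called lower in KO microglia and 13 in WT microglia. Taking mean FPKM, astrocytes held 1.56 to 8.30 times the microglia level of these genes in KO (median 3.09) and 3.12 to 25.3 times in WT (median 5.25). Summed FPKM of the 14 genes was 1430 to 2302 in KO microglia, 4895 to 7318 in KO astrocytes, 988 to 1699 in WT microglia and 3812 to 5408 in WT astrocytes. Aspa, which encodes the enzyme that splits N-acetylaspartate, differed most, by −2.98 in KO (SE 0.32, limma adjusted p = 1.84e-05) and −4.16 in WT (SE 0.35, adjusted p = 3.24e-06). Mbp differed by −1.70 in KO (SE 0.24, limma adjusted p = 0.000142) and −1.85 in WT (SE 0.26, adjusted p = 0.000153). Cnp, an enzyme of uncompacted myelin whose exons overlap Dnajc7, differed by −1.73 and −2.09, and Mobp, a small basic myelin protein gene, by −1.57 and −2.02, in KO and then in WT. The gene that was not called in either genotype was Opalin, a marker of mature oligodendrocytes (limma adjusted p = 0.354 in KO and 0.0557 in WT), and Fa2h and Gal3st1, which make hydroxylated and sulphated galactolipids, were not called in KO (limma adjusted p = 0.0643 and 0.0680). Opalin was called lower in WT with a pseudocount of 0.1, protein-coding genes only, quantile normalisation, or without WT microglia 2 or WT astrocytes 2 (adjusted p down to 0.00541), and in KO with quantile normalisation (0.0323). In KO, Fa2h was called with protein-coding genes only and without WT microglia 3 or KO astrocytes 3 (down to 0.0268), and Gal3st1 with quantile normalisation (0.0125).

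Some of these calls rested on single libraries or settings. The 22 lineage genes called lower in KO became 18 without the filter, 18 with P12 astrocytes only, 15 without KO microglia 1, 16 without KO astrocytes 4 and 17 without KO microglia 3. In WT, 20 to 25 were called lower under the alternatives run. In KO, the call on Mag, an adhesion protein gene of the inner myelin wrap, was lost without KO microglia 1 or 3, any WT microglia library, KO astrocytes 1, 2 or 4, or WT astrocytes 3 (limma adjusted p up to 0.185). The KO calls on Mal, a proteolipid gene of myelin, and Cldn11, the gene of the tight junction protein of myelin, were lost without KO microglia 1 or 3, KO astrocytes 1, 2 or 4, or WT astrocytes 3 (adjusted p up to 0.0948 and 0.143), and all 3 of these calls were also lost without the filter and with P12 astrocytes only. That on Mog, a glycoprotein gene of the outer sheath, was lost without KO microglia 1 (adjusted p = 0.0543). In WT, the call on Fa2h was lost without WT microglia 3 or WT astrocytes 1 (up to 0.0793), and that on Gal3st1 without WT microglia 1 or 3, WT astrocytes 1 or the filter (up to 0.201). Scaling moved the whole comparison. Quantile normalisation shifted the median of all genes to −0.08 in KO and −0.06 in WT, split the calls over all genes into 4083 higher and 5160 lower in KO microglia (5181 and 4073 with the deposited scaling) and 3764 and 4930 in WT (4737 and 3980), and called 26 lineage genes lower in KO and 25 in WT.

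**Figure D2:**
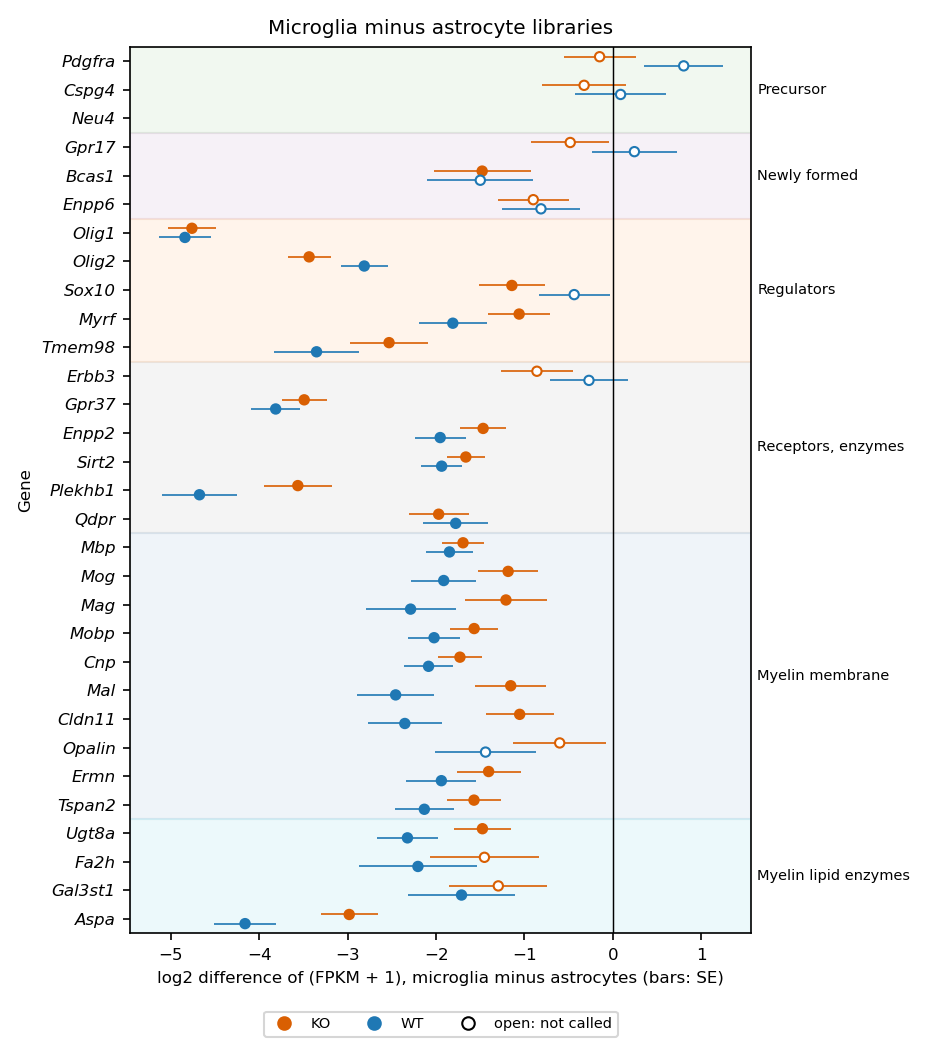
Difference between microglia and astrocyte libraries on the log2(FPKM + 1) scale for 30 lineage genes, KO above WT in each row, with bars of 1 SE. Filled points were called at an adjusted p under 0.05. Olig1 lies farthest left at −4.76 and −4.84, the precursor genes lie between −0.33 and 0.80, and most myelin genes lie between −1 and −2.5.

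Further genes of the lineage, from lists of 18 precursor, 14 newly formed and 30 myelinating genes that hold none of the 31, gave a mixed picture between the sorts. Of 16 tested precursor genes, 11 were called lower in KO microglia and 9 lower in WT microglia, with none called higher. They included Bcan, the gene of the proteoglycan brevican (−5.44 in KO and −5.58 in WT), and Ptprz1, a receptor phosphatase gene (−5.66 and −5.27), both of which astrocytes also express. Of 27 tested myelinating genes, 11 were called lower and 4 higher in KO microglia, and 16 lower and 3 higher in WT microglia. Car2, a carbonic anhydrase gene, was lower in microglia by −6.24 in KO and −6.64 in WT. Evi2a and Tmem63a were higher in microglia, Evi2a by 4.93 in KO and 4.54 in WT and Tmem63a by 3.12 and 3.51 (limma adjusted p at most 9.65e-05 for the 4 values). Of 13 tested newly formed genes, 5 were lower and 2 higher in KO microglia and 4 lower and 2 higher in WT microglia. The higher pair was Cd9, a tetraspanin gene, and Zfp488, a zinc finger gene, in both genotypes. Over all 16258 genes, 5181 were called higher and 4073 lower in KO microglia, and 4737 higher and 3980 lower in WT microglia.

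KO and WT microglia were compared to ask whether lineage transcripts in that sort differ when the cord lacks interleukin-33. Genes of the myelinating stage had higher values in KO microglia and the precursor genes lower ones, but none of the 28 tested lineage genes passed the threshold over all genes in limma. Among all 15889 genes tested, 0.0818% were called. Unadjusted, 8 lineage genes (28.6%) had p under 0.05 and were higher in KO, against 4.29% of all genes. For 9 of the 28 (32.1%), every KO library lay above every WT library, against 8.41% of all genes, and for 0 did every KO library lie below. The median lineage gene differed by 0.68, and the median of all genes by 0.02. The lineage genes move together within a library, so these shares do not come from separate measurements.

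**Figure D3:**
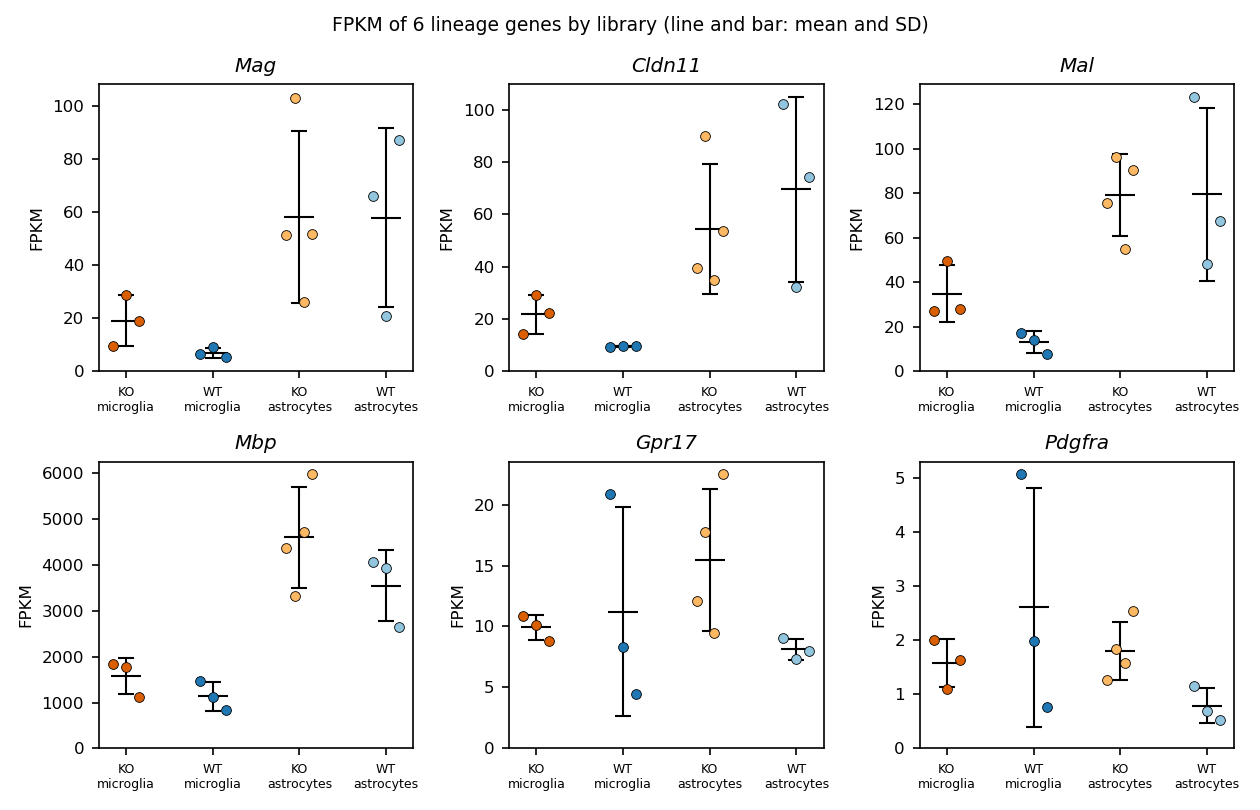
FPKM of 6 lineage genes in each library (points), with the mean and SD of each group (line and bar) and axes that start at 0. In Mag, Cldn11 and Mal all 3 KO microglia points lie above the 3 WT microglia points, in Mbp they overlap, and in Gpr17 and Pdgfra the highest microglia point is WT microglia 1.

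Of the 10 genes of the myelin membrane, 6 were higher in KO microglia at an unadjusted limma p under 0.05. Of the 4 myelin lipid genes, 2 were, against 4.29% of all genes. The median differences were 0.79 for the membrane genes and 0.97 for the lipid genes. Cldn11 (ENSMUSG00000037625, chromosome 3, 31149920 to 31164324) had 14.2, 29.0 and 22.2 FPKM in KO microglia and 9.25, 9.79 and 9.43 FPKM in WT microglia. All 3 KO libraries lay above a tight WT group, with a difference of 1.06 (SE 0.27, limma adjusted p = 0.521; exact two-sided permutation p = 0.1, the smallest that 3 against 3 allow). Mal (ENSMUSG00000027375, chromosome 2, 127633226 to 127656695) had 27.1, 49.6 and 27.9 FPKM in KO microglia and 17.3, 13.9 and 7.503 FPKM in WT microglia, a difference of 1.38 (SE 0.38, limma adjusted p = 0.533; exact permutation p = 0.1). Mag (ENSMUSG00000036634, chromosome 7, 30899176 to 30914873) had 9.43, 28.7 and 18.9 FPKM in KO microglia and 6.26, 9.10 and 5.22 FPKM in WT microglia, a difference of 1.25 (SE 0.42, limma adjusted p = 0.580; exact permutation p = 0.1). The lowest KO library was close to the highest WT library for Mag, and KO microglia 2 was the highest for all 3 genes.

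For the most abundant myelin gene the groups overlapped. Mbp averaged 1578 ± 398 FPKM in KO microglia and 1138 ± 316 FPKM in WT microglia (SD, n = 3 each), with a difference of 0.47 (SE 0.30, limma adjusted p = 0.712) and an exact permutation p of 0.3. Mobp averaged 131 ± 41.1 and 80.9 ± 21.3 FPKM and Mog 15.9 ± 5.86 and 8.58 ± 1.98 FPKM, in KO and then in WT (SD, n = 3 each), and both overlapped. Cnp averaged 87.1 ± 20.6 FPKM in KO and 52.4 ± 11.2 in WT, and Tspan2, a tetraspanin gene of early myelin, 16.8 ± 5.03 and 9.06 ± 1.44 (SD, n = 3 each). The KO libraries lay above all WT libraries for both. Opalin had 0.915, 3.59 and 2.29 FPKM in KO microglia and 1.69 FPKM in WT microglia 2, and was listed at 0 in WT microglia 1 and 3. Ermn, a cytoskeletal gene whose exons overlap Galnt5, had the smallest difference of the membrane genes, 0.40 (SE 0.40, limma adjusted p = 0.768).

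In myelin lipid synthesis, Ugt8a, which makes galactosylceramide, averaged 19.9 ± 8.56 FPKM in KO microglia and 10.4 ± 1.29 FPKM in WT microglia (SD, n = 3 each; limma log2 difference 0.81, SE 0.30, adjusted p = 0.596). Aspa had 8.93, 3.72 and 3.85 FPKM in KO microglia and 2.79, 1.53 and 1.08 FPKM in WT microglia (limma log2 difference 1.17, SE 0.40, adjusted p = 0.581). For both genes every KO library was above every WT library. Fa2h averaged 27.3 ± 13.3 and 12.8 ± 7.63 FPKM and Gal3st1 2.52 ± 1.69 and 1.21 ± 1.32 FPKM, in KO and then in WT (SD, n = 3 each), with overlap. All 14 myelinating genes thus had a positive difference, from 0.40 to 1.38 with a median of 0.80, and 8 of them were the genes with an unadjusted p under 0.05.

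The earlier stages did not share this pattern. Of the newly formed genes, Gpr17 had 10.8, 10.1 and 8.84 FPKM in KO microglia and 20.9, 8.28 and 4.48 FPKM in WT microglia. Bcas1 had 44.0, 55.4 and 40.6 FPKM in KO microglia and 102, 23.4 and 15.02 FPKM in WT microglia. For both, WT microglia 1 was the highest of the 6 libraries and WT microglia 3 the lowest, so the WT group spanned the KO group. Their differences were 0.07 and 0.46 (SE 0.50 and 0.69, limma adjusted p = 0.976 and 0.846), and that of Enpp6 was 0.03 (SE 0.37, adjusted p = 0.987). Without WT microglia 1 they became 0.61 for Gpr17 and 1.26 for Bcas1, and without WT microglia 3 −0.39 and −0.08. The precursor genes Pdgfra and Cspg4 differed by −0.31 and −0.45 (SE 0.50 and 0.61; limma adjusted p = 0.858 for Pdgfra), which turned to 0.15 and 0.05 without WT microglia 1 and to −0.74 and −1.08 without WT microglia 3. Among the regulators, Myrf had 3.58, 5.05 and 5.26 FPKM in KO microglia and 3.17, 2.58 and 0.782 FPKM in WT microglia, without overlap (limma log2 difference 0.90, SE 0.38, adjusted p = 0.596). Olig2 differed by −0.54, Sox10 by −0.08, Olig1 by 0.14 and Tmem98 by 0.90, each with a limma adjusted p of at least 0.665. Of the receptors and enzymes, Qdpr, which recycles tetrahydrobiopterin, differed by −0.76 and Plekhb1 by 0.89 (limma adjusted p = 0.662 and 0.669). Of the genes under the filter, Gpr37 had 0.490 to 1.31 FPKM in KO microglia and 0.0931 to 0.658 in WT microglia, Erbb3 0.4001 to 0.827 in KO and 0.424 to 1.39 in WT, and Neu4 0.375 to 0.593 in KO and 0.422 to 1.60 in WT.

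**Figure D4:**
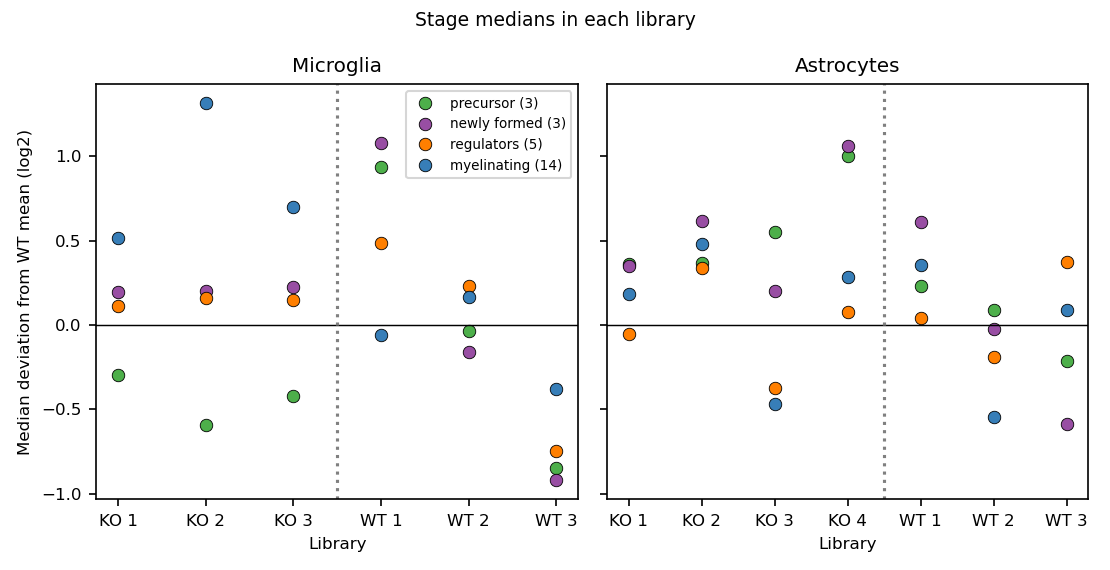
Median deviation of the genes of each stage from their WT mean of the same sort, on the log2(FPKM + 1) scale, in each microglia library (left) and astrocyte library (right). In KO microglia 1 to 3 the 14 myelinating genes lie at 0.51, 1.31 and 0.70 and the 3 precursor genes at −0.30, −0.59 and −0.42, while WT microglia 1 is high and WT microglia 3 low for the earlier stages.

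Stage by stage within a library, the myelinating genes deviated from their WT mean by a median of 0.51, 1.31 and 0.70 in KO microglia and −0.06, 0.17 and −0.38 in WT microglia. Newly formed genes deviated by 0.19, 0.20 and 0.23 in KO and 1.08, −0.16 and −0.92 in WT. Precursor genes deviated by −0.30, −0.59 and −0.42 in KO and 0.94, −0.04 and −0.85 in WT. All KO values are set against the same WT mean, so the order of the stages in KO is partly that of the WT libraries. WT microglia 1 was the highest of the WT libraries in the precursor and newly formed genes and WT microglia 3 the lowest in all 3 stages. Leaving out KO microglia 2 lowered the median of the lineage genes to 0.37 and left 3 (Mal, Cldn11 and Aspa) at an unadjusted p under 0.05. The median of the myelinating genes was then 0.54, with 13 of 13 tested genes positive. Without WT microglia 3 the lineage median was 0.44 with 5 at an unadjusted p under 0.05.

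Other transcripts that differed between these libraries are given for comparison. Xist, expressed from the inactive X chromosome, had 0.376, 0.366 and 0.145 FPKM in KO microglia and 268, 283 and 0.713 FPKM in WT microglia. Xist was thus high only in WT microglia 1 and 2, so genotype and the sex of the animals cannot be fully told apart in this comparison. With Xist as a covariate, a fit in which the WT level rests mainly on WT microglia 3, the lineage median was 1.03, the myelinating median 1.16, the lineage genes called 0, and Pdgfra and Cspg4 turned to 0.60 and 0.90. The 9 neutrophil and monocyte markers, all found, summed to 58.1 to 115 FPKM in KO microglia and 143 to 268 FPKM in WT microglia, without overlap. The sums of the neuron, Schwann cell and astrocyte markers given above overlapped between the genotypes in microglia. One of the neuron markers was at 0 throughout WT microglia, and the Schwann sum was mostly Pmp22, at a mean of 325 FPKM in KO microglia and 304 in WT microglia. The part of these transcripts in the lineage differences was not tested.

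The authors' deposited table of genotype differences in microglia lists 483 genes (206 higher in KO and 277 higher in WT). The expression data hold 39171 genes, of which 15889 were tested here in microglia. Of the 31 lineage genes, 2 appear in the authors' deposited table. The authors' deposited table gives Cldn11 a mean normalised count of 1217 in KO and 535 in WT (adjusted p = 0.00343) and Mag 1585 in KO and 522 in WT (adjusted p = 0.0126). Their log2 fold changes in the authors' deposited table run from WT over KO and are −1.24 and −1.65 before shrinkage. The table was made from these same libraries, so it is not separate evidence. From the other lineage lists, the authors' deposited table also holds Nfasc, a gene of the adhesion molecule neurofascin, at 5919 in KO and 2870 in WT. It holds Pcdh15, a protocadherin gene of precursors, at 274 in KO and 908 in WT, and Gria3, a glutamate receptor gene, at 187 in KO and 486 in WT. For Gria3 the FPKM were 2.48, 1.74 and 1.78 in KO microglia and 11.7, 1.74 and 2.46 in WT microglia, so that WT microglia 1 alone was high.

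The other lists were read in the same 6 microglia libraries, so they are not separate evidence, and no test between stages was run. Of 24 further myelinating genes tested, 20 had a positive difference (median 0.54), 6 of them at an unadjusted p under 0.05 and 0 called in limma. Of 16 further precursor genes tested, 2 had a positive difference (median −0.47), 3 were lower at an unadjusted p under 0.05 and 0 were called. Pcdh15 had 3.72, 0.971 and 1.54 FPKM in KO microglia and 4.35, 8.25 and 5.91 FPKM in WT microglia, a difference of −1.28 without overlap (SE 0.40, limma adjusted p = 0.556). Sox8, a relative of Sox10, averaged 7.35 ± 2.14 and 18.1 ± 8.995 FPKM in KO and then in WT (SD, n = 3 each; limma log2 difference −1.12, adjusted p = 0.581). Of 12 further newly formed genes, 7 had a positive difference, with a median of 0.18. Over all 15889 genes the median was 0.02 and 8308 differences were positive. At an unadjusted limma p under 0.05, 682 of these 15889 genes were higher in KO and 583 lower.

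**Figure D5:**
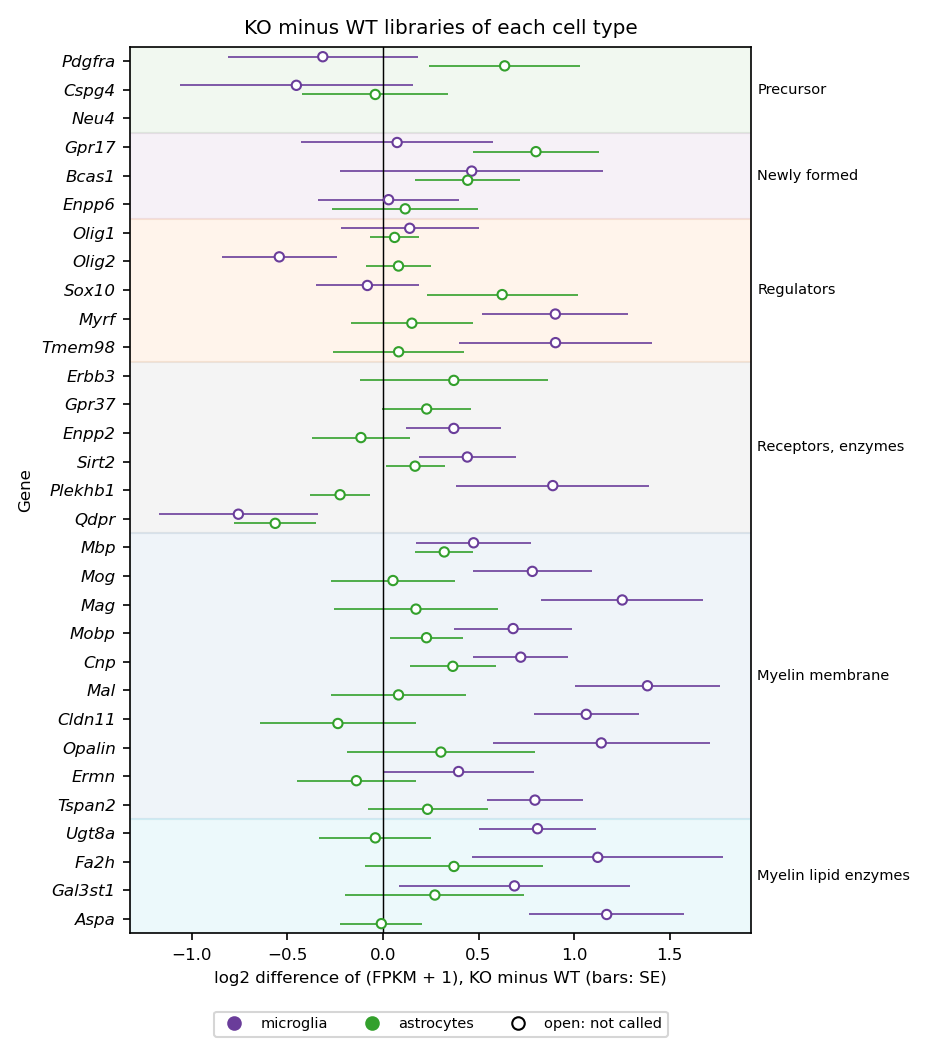
Difference between KO and WT libraries on the log2(FPKM + 1) scale for the tested lineage genes, microglia above astrocytes in each row, with bars of 1 SE. No point is filled, since 0 genes passed. The 14 myelinating genes lie right of 0 in microglia, between 0.40 and 1.38, and about 0 in astrocytes, between −0.24 and 0.37.

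In astrocytes, the lineage genes of KO and WT were closer together. None of the 30 tested lineage genes was called in limma, against 0.0224% of 13397 genes, and the median difference was 0.16, against 0.00 over all genes. At an unadjusted p under 0.05 were 2 lineage genes (6.67%), against 4.19% of all genes, and 0 lineage genes without KO astrocytes 2 or WT astrocytes 3. The one with a positive difference was Gpr17, with 12.1, 17.7, 9.47 and 22.5 FPKM in KO astrocytes and 9.02, 7.36 and 7.99 FPKM in WT astrocytes. All KO values were above the WT values, though the lowest KO library was close to the WT group (log2 difference 0.80, SE 0.33, limma adjusted p = 0.921). The exact permutation p of Gpr17 was 0.0571, the smallest that this two-sided test allows for 4 against 3 libraries. The one with a negative difference was Qdpr, at 31.6 ± 7.72 FPKM in KO (SD, n = 4) and 45.9 ± 12.7 FPKM in WT (SD, n = 3), with overlap (log2 difference −0.56, SE 0.21, limma adjusted p = 0.921).

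Of the 30 tested lineage genes, 2 (6.67%; Pdgfra and Gpr17) lay higher in every KO astrocyte library than in any WT one, against 2.32% of all 13397 genes. Pdgfra, with the values given above, did not overlap (exact permutation p = 0.0571; limma log2 difference 0.64, SE 0.40, adjusted p = 0.921). Neu4 had 0.867, 0.658, 1.16 and 2.10 FPKM in KO astrocytes and 0.511, 0.368 and 0.0285 FPKM in WT astrocytes, again without overlap (exact permutation p = 0.0571). These levels are low, and Neu4 was under the filter. The other 28 lineage genes overlapped between the genotypes. Of the 14 myelinating genes, 10 had a positive difference, with a median of 0.20 and a range from −0.24 (Cldn11) to 0.37 (Fa2h). Mag averaged 58.0 ± 32.4 FPKM in KO (SD, n = 4) and 57.9 ± 33.9 FPKM in WT (SD, n = 3), and Mal 79.3 ± 18.6 and 79.6 ± 38.9 FPKM. Single libraries moved these medians. That of the myelinating genes was −0.21 with 5 of 14 positive without WT astrocytes 2, 0.07 with 8 positive without KO astrocytes 2 or WT astrocytes 3, 0.10 with 8 positive without KO astrocytes 4, and 0.46 with 14 positive without WT astrocytes 1. That of all lineage genes was 0.02 without WT astrocytes 2, 0.09 without KO astrocytes 2, KO astrocytes 4 or WT astrocytes 3, 0.26 without KO astrocytes 3 and 0.36 without WT astrocytes 1. The authors' deposited table for astrocytes lists 10 genes, against 13397 tested here, and 0 of the 10 are lineage genes.

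The test of whether the genotype difference itself differed between the sorts called 0 of 30 lineage genes in limma, against 0.141% of 16258 genes. The difference in microglia minus that in astrocytes was positive for all 14 myelinating genes, with a median of 0.74, and negative for both tested precursor genes, although Cspg4 turned to 0.09 without WT microglia 1. The myelinating median was 0.40 with 13 positive without WT astrocytes 1 and 0.48 without KO astrocytes 3. An unadjusted p under 0.05 was found for 3 lineage genes (10%), against 6.62% of all genes, and for 0 without WT microglia 2, 1 without KO microglia 2, KO astrocytes 1 or 3, or WT astrocytes 1, and 4 without KO microglia 1 or WT astrocytes 2. The 3 were Aspa (1.18, SE 0.45, limma adjusted p = 0.726), Cldn11 (1.30, SE 0.55, adjusted p = 0.751) and Mal (1.30, SE 0.56, adjusted p = 0.751). Over all 30 lineage genes the median was 0.43, and over all genes 0.01. The lineage median was 0.19 without KO microglia 2, 0.20 without WT microglia 3 and 0.25 without WT astrocytes 1.

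Age was compared in astrocytes only, with 5 libraries at P12 and 2 at P9. No lineage gene was called in limma, against 0.097% of 13397 genes, and with 1 P9 library per genotype these values rest on few animals. Bcas1 had 92.4, 164, 151, 124 and 72.5 FPKM at P12 and 54.3 and 41.6 FPKM at P9, so every P12 library was higher (log2 difference 1.22, SE 0.30, limma adjusted p = 0.297). Mbp had 4377, 4722, 5997, 4058 and 3944 FPKM at P12 and 3331 and 2654 FPKM at P9, again without overlap (log2 difference 0.59, SE 0.17, limma adjusted p = 0.378). Mag went the other way, with 51.3, 26.0, 51.7, 66.0 and 20.6 FPKM at P12 and 103 and 87.0 FPKM at P9, so every P12 library was lower (log2 difference −1.26, SE 0.47, limma adjusted p = 0.524). Olig1 was also lower in every P12 library than in the P9 libraries (limma log2 difference −0.21, SE 0.14, adjusted p = 0.788). Sox10 had a difference of −1.25 (SE 0.43) and Qdpr one of 0.56 (SE 0.23), both with an unadjusted p under 0.05 and with overlap. Of the 14 myelinating genes, 3 had a positive difference, and the median was −0.34. Without KO astrocytes 2, the P9 library of that genotype, the median of the lineage genes was −0.09, and without WT astrocytes 3, the other P9 library, −0.41, against −0.24 with all libraries. It was −0.37 without WT astrocytes 1. Most genes of mature myelin (11 of 14) thus had a negative difference with age in these astrocyte libraries, while that of Mbp was positive, and 0 were called. Of the 27 further myelinating genes tested, 8 had a positive difference with age (median −0.37), and of 16 precursor genes 5 had (median −0.14).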

How the data were processed

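Sorted-cell RNA was amplified with NuGEN's RNA-Seq V2 chemistry, as the labels' protocols state. The submitters' processing notes name build GRCm38 and the tools Cuffnorm, Cufflinks, DESeq2, HTSeq 0.6.1p1, Bowtie2 2.2.3 and TopHat2 2.0.11. The authors deposited FPKM of 39171 genes in 13 libraries. Their deposited comparison tables hold, per the file headers, each genotype's mean normalised signal, log2 fold changes of WT over KO, a test score and a p-value with its adjusted value. Since FPKM cannot be tested as counts, no count model was used. Differences were fitted on log2(FPKM + 1), which understates the change of low genes, with limma 3.58.1 in R 4.3.3 (lmFit, eBayes with a trend, two-sided) for genes averaging 1 FPKM or more, and called at a Benjamini-Hochberg adjusted p under 0.05 over all genes. Microglia were fitted alone, astrocytes alone with age as a covariate, and cell types and the interaction in all 13 libraries with age. Single genes were also tested on FPKM with exact two-sided permutation tests (scipy 1.17.1). The fits were tested on simulated data.

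Coordinates and overlaps are from GENCODE M21 on GRCm38, which held 37605 (96.0%) of the identifiers. Strand is not given in the sources used here, so the 11 genes that share exon sequence with another gene (Pdgfra, Gpr17, Bcas1, Olig1, Enpp2, Sirt2, Qdpr, Mobp, Cnp, Ermn and Tspan2) are uncertain. All listed genes are named. From the other lineage lists, up to 4 called genes with the smallest p per direction are taken, or the 2 with the smallest p where none is called, and a selection of these is given. Gria3 was named after its values were seen. Some genes of these lists are not reported here. The genes and lists were chosen with earlier results of these data known. Alternatives were the pseudocount (0.1), the filter, the gene type, the scaling, the trend, the replicate number as a block, Xist, P12 only and each library left out.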

Additional observations from a re-analysis of the deposited data

Results flagged for a closer look

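Fa2h in KO astrocytes had 1 library far from the other 3. KO astrocytes 3 held 33.2 FPKM, against 99.3, 100.4 and 109 FPKM in KO astrocytes 1, 2 and 4, a gap above Dixon's 95% critical value for 4 samples. WT astrocytes held 74.3, 35.6 and 89.7 FPKM of Fa2h. Among the 31 genes tested in this group, 1 was picked out, and chance picks out about 1 in 20 groups. The cause was not tested.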

How the results depend on the processing

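No lineage gene was called in the genotype, age or interaction comparisons under any alternative run, and no called difference changed sign. Differences called in neither fit changed sign in 26 of 1274 values under the alternatives that keep all libraries or all P12 libraries, and in 85 of 1757 with 1 library left out. Between the sorts, 11 lineage calls were lost and 12 gained under the alternatives that leave out no single library, and 40 were lost and 10 gained with 1 library left out. The count of genes called over all genes moved more. For KO against WT microglia it was 13, and 25 with a pseudocount of 0.1, 7 without the filter, 2 for protein-coding genes only, 258 with Xist as a covariate and 18 to 48 with 1 library left out. For KO against WT astrocytes it was 3, and 5 with a pseudocount of 0.1, 0 without the filter (847 at an unadjusted p under 0.05), 1 for protein-coding genes, 0 at P12 only (736 at an unadjusted p under 0.05) and 0 to 8 with 1 library left out. For P12 against P9 astrocytes it was 13, and 7 with a pseudocount of 0.1, 35 without the filter, 7 for protein-coding genes and 6 to 82 with 1 library left out. For the interaction it was 23, and 37 without the filter, 2 for protein-coding genes and 15 to 75 with 1 library left out. The causes were not tested.

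The replicate numbers did not pair the samples. Correlations of same-numbered libraries were 0.028, 0.010 and 0.023 in microglia and 0.021, −0.078 and −0.017 in astrocytes. In microglia every library correlated best with its own number, a hint from the data and not from the design. With the replicate number as a block, 3 genes were called in microglia and 0 in astrocytes (468 at an unadjusted p under 0.05), with 0 lineage genes in either. Low FPKM limit the precursor genes most, since Pdgfra, Cspg4 and Neu4 had at most 5.07, 4.32 and 2.10 FPKM.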
